A study of Homo sapiens with 24 samples.

Results

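The CYP4F fatty acid hydroxylases were examined as 5 genes, CYP4F11, CYP4F3, CYP4F12, CYP4F2 and CYP4F22, among the 28307 genes of the deposited count table. They were found by symbol, and the family was chosen by the log2 fold changes of drug against vehicle in SW620 cells, where CYP4F11 was among the genes with the largest rise. The family's values in that comparison are therefore a description and carry no p-value. The study sequenced total RNA from 2 established cell lines, SUM159 from a breast cancer and SW620 from a colon cancer. Cells were grown attached and treated for 30 hours with Nifuroxazide (NIF), a nitrofuran antibiotic, or kept under its vehicle DMSO. They were sorted into ALDHbr and ALDHneg cells, with high and low aldehyde dehydrogenase activity in the ALDEFLUOR assay. ALDHbr cells are labelled cancer stem cells. The paper's RNA-seq methods do not state plainly whether the sort came before or after the drug. The 8 groups are thus SUM159 or SW620, ALDHbr or ALDHneg, NIF or DMSO, each with 3 libraries from independent experiments. Each tumor type is represented by a single line, and the final NIF concentrations, which the study keeps in a supplement, are not used here. In such bulk libraries, fewer cells that express a gene and less RNA per cell cannot be told apart.

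CYP4F enzymes are membrane-bound cytochromes P450 of the endoplasmic reticulum. With electrons from the reductase POR, they place a hydroxyl group on the terminal (omega) carbon of a fatty acid chain, after which alcohol and aldehyde dehydrogenases can carry the chain end on to a dicarboxylic acid for peroxisomal oxidation. Their substrates include leukotriene B4, whose inactivation the reaction begins, and arachidonic acid, which becomes a vasoactive hydroxylated product. The side chains of vitamins E and K and the very long fatty acids of skin ceramides are substrates too. They are best known from liver, kidney, intestine, leukocytes and skin.

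All 5 genes lie within 426 kb of chromosome 19 (RefSeq positions on GRCh38.p14, the build that the submitters' processing notes name being GRCh38). From the low to the high coordinate, CYP4F22 (Entrez 126410), the enzyme of acylceramide synthesis in skin, is at chr19:15508525-15552317. CYP4F3 (Entrez 4051), the leukotriene B4 hydroxylase of neutrophils with a second splice form in liver, is at chr19:15640897-15662825, and CYP4F12 (Entrez 66002), which also oxidises antihistamines, is at chr19:15673087-15697174. CYP4F2 (Entrez 8529), the main hydroxylase of vitamins E and K in liver, is at chr19:15878023-15898074. CYP4F11 (Entrez 57834), which acts on long-chain fatty acids and vitamin K, is at chr19:15912377-15934867. CYP4F2 and CYP4F11 are read from the minus strand.

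The sequences before the start sites are shown for CYP4F11 and CYP4F3, the members with the largest changes. RefSeq's promoter table held windows for 4 of the 5 members, with CYP4F12 as the exception, and for CYP4F11 it held 2. Each line gives the 250 bases before a start site, on the strand of the gene. The first CYP4F11 window (chr19:15934868-15935117, minus strand) precedes the outermost start, and the second (chr19:15934530-15934779, minus strand) a start 338 bases into the gene. The CYP4F3 window (chr19:15641062-15641311, plus strand) precedes a start 415 bases into the gene. Capitals mark matches to the motifs searched.
CYP4F11 outer start: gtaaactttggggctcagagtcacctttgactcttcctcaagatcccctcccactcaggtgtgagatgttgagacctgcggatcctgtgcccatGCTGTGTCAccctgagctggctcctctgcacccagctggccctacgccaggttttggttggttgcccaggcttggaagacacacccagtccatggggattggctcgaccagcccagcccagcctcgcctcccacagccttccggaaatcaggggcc
CYP4F11 inner start: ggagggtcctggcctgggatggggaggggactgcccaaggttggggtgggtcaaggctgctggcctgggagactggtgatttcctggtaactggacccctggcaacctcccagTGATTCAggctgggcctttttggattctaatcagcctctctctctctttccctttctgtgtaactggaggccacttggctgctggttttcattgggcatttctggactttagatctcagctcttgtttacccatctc
CYP4F3 inner start: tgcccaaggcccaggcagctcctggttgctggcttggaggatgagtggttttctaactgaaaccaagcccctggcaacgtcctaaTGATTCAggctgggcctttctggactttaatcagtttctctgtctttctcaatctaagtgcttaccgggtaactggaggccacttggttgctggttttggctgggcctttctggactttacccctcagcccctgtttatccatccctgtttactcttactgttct

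The windows of both inner starts resembled each other, with 60.9% of positions identical in a global alignment, and the same 19 bases, TGATTCAGGCTGGGCCTTT, began at position -137 from the CYP4F11 start and at position -165 from the CYP4F3 start. The outer CYP4F11 window and the CYP4F2 window had a higher identity, 64.3%, and the other 8 pairs of member windows had 44.4% to 53%. The shared run opens with a match to TGANTCA, the AP-1 motif, which was present in 6.57% of the 35116 promoter windows of this length. The outer CYP4F11 window had no match to TGANTCA and shared 46.2% of positions with the CYP4F3 window. It held TGACNNNGC, the core of the antioxidant response element, on the other strand at positions -156 to -148, as did 10.9% of all windows. Neither motif was in the CYP4F2 window, and the CYP4F22 window held only GCGTG, the core of the xenobiotic response element, which 32.2% of windows have. The STAT motif TTCNNNGAA, in 6.57% of windows, was in none of the 5 member windows. Both strands were searched, TGANTCA and TTCNNNGAA read the same on both, and a match describes letters and not a bound site.

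Total counts per library ran from 30253187 to 43127948. The colon epithelial markers, 10 genes such as EPCAM and CDX2, summed to 3410 to 4240 CPM (counts scaled to a common library size) in SW620 libraries and to 0.232 to 11.6 CPM in SUM159 libraries, and 10 mesenchymal markers summed to 106 to 176 and to 11400 to 16300 CPM. ALDH1A1, an aldehyde dehydrogenase that the ALDEFLUOR assay reads, had a mean under DMSO of 127 CPM ± 25.9 (SD, n = 3) in SUM159 ALDHbr cells and 0.45 CPM ± 0.0553 (SD, n = 3) in ALDHneg cells. In SW620 the same means were 1400 CPM ± 50.3 and 956 CPM ± 18.3 (SD, n = 3 each), a narrower gap. ALDH1A3, a second such enzyme, was at 146 CPM ± 6.17 and 188 CPM ± 4.7 (SD, n = 3 each) in these SW620 populations and under 1 CPM in every SUM159 library. All CPM values were scaled by TMM factors over the 24 libraries.

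The 5 members differed widely in how far they were read at all. CYP4F11 had counts in 24 of 24 libraries, 10704 in all, and CYP4F3 had 8050 counts in 19 libraries and CYP4F12 2395 counts in 17. CYP4F2 reached 13 counts over all libraries, with at most 5 in any library. CYP4F22 had 8 counts, all in SUM159 ALDHneg libraries. Its 0 counts in each of the 12 SW620 libraries allow up to 0.096 CPM (3 counts) in the shallowest of them, counting error only. SW620 held 10561 of the CYP4F11 counts, 8033 of the CYP4F3 counts and 2388 of the CYP4F12 counts, and SUM159 held 143, 17 and 7. The family in these data is therefore CYP4F11, CYP4F3 and CYP4F12 in SW620, and CYP4F11 at a low level in SUM159.

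**Figure D1:**
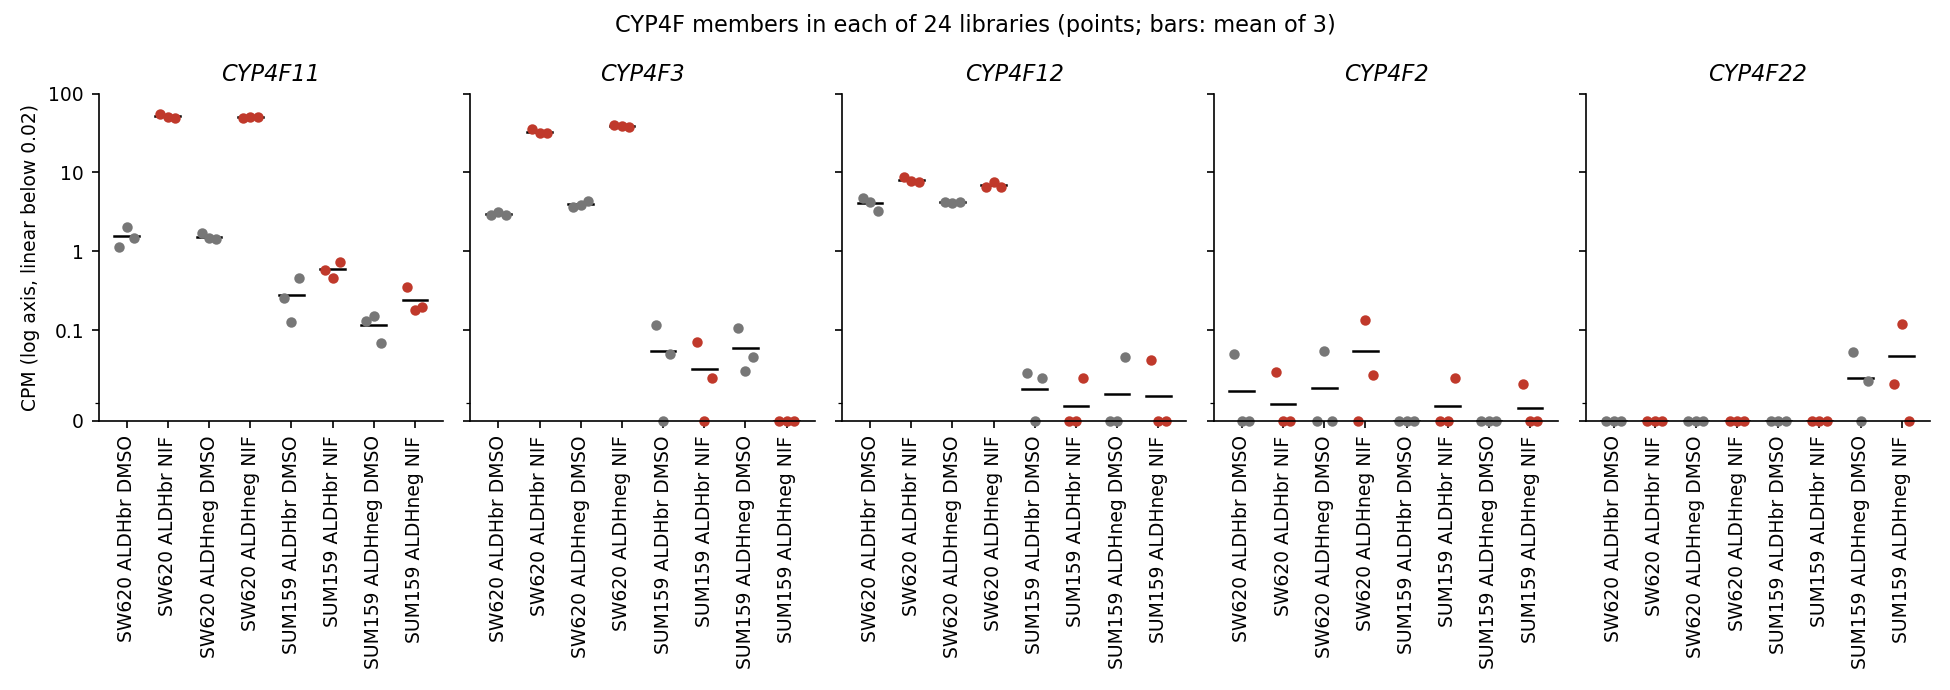
CPM of each of the 5 members in 24 libraries, on a log axis that is linear below 0.02, with grey points for DMSO, red points for NIF and a bar for the mean of 3 libraries. In SW620 the NIF libraries of CYP4F11, CYP4F3 and CYP4F12 all lie above the DMSO libraries of the same population, and CYP4F2 and CYP4F22 stay at 5 or fewer counts in every library.

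In SW620 cells the levels of CYP4F11, CYP4F3 and CYP4F12 RNA were higher with NIF than with DMSO in both sorted populations, in that order of fold. In ALDHbr cells CYP4F11 had 45, 65 and 52 counts under DMSO and 1891, 1465 and 1451 under NIF, or 1.15, 2.04 and 1.5 CPM against 55.7, 50.2 and 48.7 CPM. In ALDHneg cells it had 65, 54 and 48 counts under DMSO and 1719, 1864 and 1842 under NIF, or 1.69, 1.49 and 1.44 CPM against 49.2, 50.6 and 49.9 CPM. No NIF library came near a DMSO library. The log2 fold change was 5.06 (SE 0.125), a 33.3-fold difference, in ALDHbr cells and 5.00 (SE 0.125), or 32-fold, in ALDHneg cells. By size of log2 fold change CYP4F11 stood at place 7 and place 9 among 13953 genes, which is what the family was chosen for.

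CYP4F3 had a higher CPM than CYP4F11 under DMSO and a smaller fold. It had 112, 102 and 99 counts under DMSO and 1197, 926 and 946 under NIF in ALDHbr cells, or 2.86, 3.2 and 2.86 CPM against 35.3, 31.8 and 31.8 CPM. In ALDHneg cells the counts were 140, 140 and 144 under DMSO and 1403, 1416 and 1408 under NIF, or 3.64, 3.87 and 4.33 CPM against 40.2, 38.4 and 38.1 CPM. The libraries of each group lay close together and the treatments far apart, with a log2 fold change of 3.47 (SE 0.085), or 11.1-fold, in ALDHbr cells and 3.30 (SE 0.0813), or 9.82-fold, in ALDHneg cells. CYP4F3 was at place 30 and place 39 of the 13953 genes.

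CYP4F12 had the smallest fold of these 3 members. Its ALDHbr libraries had 4.77, 4.21 and 3.24 CPM under DMSO and 8.67, 7.85 and 7.63 CPM under NIF. Its ALDHneg libraries had 4.23, 4.12 and 4.18 CPM under DMSO and 6.59, 7.68 and 6.53 CPM under NIF. The groups did not overlap here either, and the log2 fold changes were 0.976 (SE 0.126), or 1.97-fold, in ALDHbr cells and 0.722 (SE 0.125), or 1.65-fold, in ALDHneg cells. The 3 members passed the count filter in all 4 SW620 groups, and no test of them is given, since this contrast chose the family. Over all genes, 43.3% in ALDHbr cells and 45.1% in ALDHneg cells passed the adjusted p threshold of 0.05, 21.4% and 22.3% upwards. Groups without overlap, as these 3 members had, were found for 45.1% of genes in ALDHbr cells and 63.4% in ALDHneg cells, and nothing is read from that count. CYP4F2, with 0 to 5 counts, and CYP4F22, with none, gave no fold in SW620.

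Just outside the family by name stand 6 further CYP4F rows of the table, which are no members. The pseudogene CYP4F35P, on another chromosome, had 429 counts in all, CYP4F24P 44, CYP4F29P 29, CYP4F8, a prostaglandin hydroxylase of seminal vesicles between CYP4F22 and CYP4F3, 13, CYP4F62P 7 and CYP4F30P 6. Only CYP4F35P passed the filter, in SW620. It rose under NIF from 19 to 29 counts per library to 28 to 47 in ALDHbr cells (log2 fold change 0.879, SE 0.259, adjusted p = 0.0136, edgeR quasi-likelihood test) and from 13 to 21 to 35 to 50 counts in ALDHneg cells (log2 fold change 1.34, SE 0.272, adjusted p = 0.00107, edgeR).

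Near-identical sequence could move reads between the members, since how shared reads were counted is not given in the sources used here. In GENCODE transcripts, none of the 100-base stretches of CYP4F11, CYP4F12 or CYP4F22 occurred in another CYP4F gene, and 1.56% of those of CYP4F3 did, all in CYP4F2. Of 50-base stretches, 0.717% of those of CYP4F11, 1.23% of those of CYP4F12 and 7.99% of those of CYP4F3 did. For CYP4F2 it was 12.3%, mostly with CYP4F3, so that the few CYP4F2 counts are uncertain. No 50-base stretch of a member was found in CYP4F35P.

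The make-up of the family in SW620 shifted with the treatment. Under DMSO, CYP4F11 gave 17.8% of the counts of the 5 members in ALDHbr cells and 16% in ALDHneg cells, and under NIF 55.7% and 52.1%. CYP4F12 went from 47.6% and 43.2% of the counts under DMSO to 8.69% and 7.24% under NIF, whereas CYP4F3 stayed between 34.4% and 40.6%. The sum of the 5 members was 8.63 CPM ± 0.938 (SD, n = 3) under DMSO and 92.6 CPM ± 6.24 (SD, n = 3) under NIF in ALDHbr cells. It was 9.68 CPM ± 0.238 and 95.8 CPM ± 1.16 (SD, n = 3 each) in ALDHneg cells. These are again values of the contrast that chose the family.

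Per transcript length, in RPKM (CPM per kilobase of transcript, over the canonical GENCODE transcripts of 3051 bases for CYP4F11, 5053 for CYP4F3 and 1714 for CYP4F12), the order of the members differed between the treatments. Under DMSO in ALDHbr cells CYP4F12 was highest with 2.38 RPKM ± 0.453, ahead of CYP4F3 with 0.589 RPKM ± 0.0389 and CYP4F11 with 0.513 RPKM ± 0.147 (SD, n = 3 each), and the last 2 do not differ beyond their spread. Under NIF CYP4F11 led with 16.9 RPKM ± 1.21, ahead of CYP4F3 with 6.52 RPKM ± 0.401 and CYP4F12 with 4.7 RPKM ± 0.319 (SD, n = 3 each). In ALDHneg cells the order was the same, with 16.4, 7.7 and 4.04 RPKM under NIF. With the exon union of each gene as its length, the order held in the 4 SW620 groups, but CYP4F12 under DMSO in ALDHbr cells was then at 0.8 RPKM beside 0.539 RPKM for CYP4F3.

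**Figure D2:**
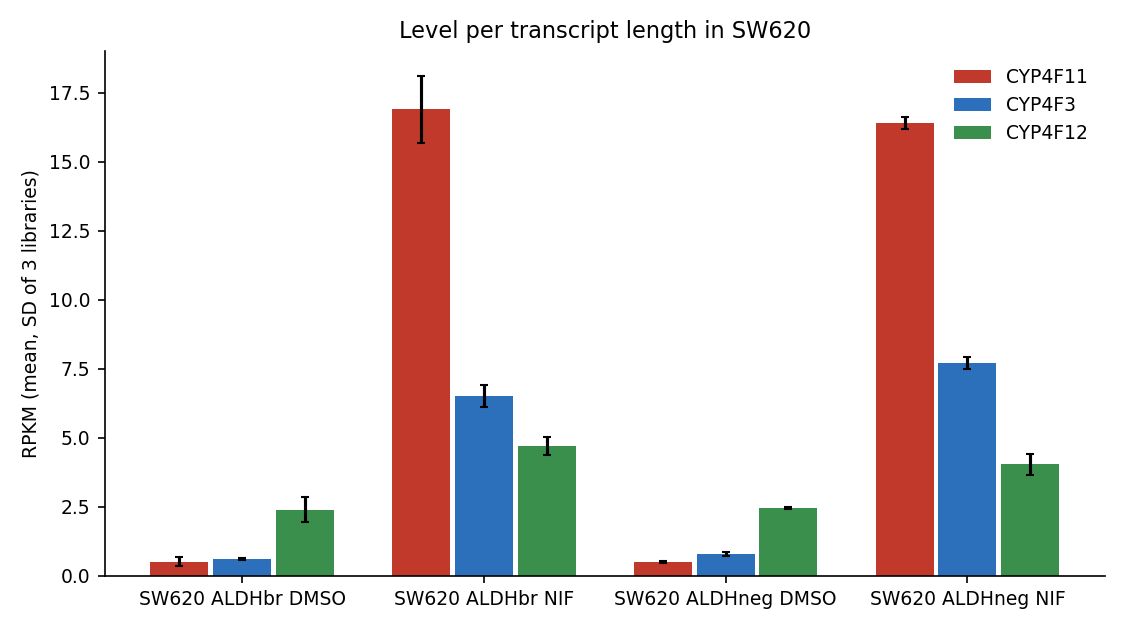
Mean RPKM of CYP4F11, CYP4F3 and CYP4F12 in the 4 SW620 groups, with the SD of 3 libraries as error bars and the axis from 0. CYP4F12 is the tallest bar under DMSO at 2.38 and 2.44 RPKM, and CYP4F11 under NIF at 16.9 and 16.4 RPKM.

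The difference of the NIF effects between the sorted populations of SW620 is drawn from the contrasts that chose the family. It is therefore a description without a p-value. ALDHbr minus ALDHneg, the log2 fold changes differed by 0.06 (SE 0.196) for CYP4F11, 0.17 (SE 0.119) for CYP4F3 and 0.26 (SE 0.178) for CYP4F12. Over all genes, 1 of 13953 passed the test of this difference, the interaction (edgeR), which is 0.00717%.

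Under DMSO the populations of SW620 differed in CYP4F3 and not detectably in CYP4F11 or CYP4F12. CYP4F3 had 2.86, 3.2 and 2.86 CPM in ALDHbr cells and 3.64, 3.87 and 4.33 CPM in ALDHneg cells. All 3 ALDHbr libraries were below the ALDHneg libraries, and 28.4% of genes had such groups without overlap. The log2 fold change was -0.41 (SE 0.0982, 95% confidence interval -0.619 to -0.197, adjusted p = 0.0183, edgeR), so that 1 of 3 members tested passed, downwards, where 11.3% of genes did in either direction and 5.86% downwards. The call was lost when the 2 groups were fitted alone (adjusted p = 0.0946) and when ALDHbr library 1 or 3 or ALDHneg library 2 or 3 was left out (0.0511 to 0.0814), the log2 fold change staying between -0.35 and -0.48. For CYP4F11 the difference was -0.01 (interval -0.379 to 0.367, adjusted p = 0.985) and for CYP4F12 -0.03 (interval -0.318 to 0.25, adjusted p = 0.881). The libraries of both genes overlapped between the populations.

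In SUM159 cells CYP4F11 was the only member read in every library, at 3 to 30 counts. In ALDHbr cells it had 9, 4 and 18 counts under DMSO and 24, 15 and 30 under NIF, or 0.26, 0.128 and 0.455 CPM against 0.578, 0.456 and 0.741 CPM. In ALDHneg cells it had 5, 5 and 3 counts under DMSO and 17, 6 and 7 under NIF, or 0.132, 0.152 and 0.069 CPM against 0.358, 0.184 and 0.196 CPM. In each population the NIF libraries were above the DMSO libraries, in ALDHbr cells with 0.456 as the lowest NIF and 0.455 CPM as the highest DMSO value, and 23.2% of genes in ALDHbr and 19.6% in ALDHneg cells had groups without overlap.

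The log2 fold change of CYP4F11 in SUM159 was 1.03 in ALDHbr cells (SE 0.431, 95% confidence interval 0.11 to 1.95, adjusted p = 0.236, edgeR) and 1.12 in ALDHneg cells (SE 0.548, interval -0.0468 to 2.29, adjusted p = 0.324, edgeR). So 0 of 1 member tested passed. Of all genes, 3.16% did in ALDHbr cells (0.936% upwards, 2.23% downwards) and 3.3% in ALDHneg cells (1.1% upwards, 2.2% downwards). At this depth a change was not detectable in this fit, which left out the pairing of the SUM159 libraries by replicate number. When the replicate number entered as a block, 1994 genes passed in ALDHbr cells and 1970 in ALDHneg cells, and CYP4F11 did not (adjusted p = 0.0996 and 0.197). CYP4F11 passed the count filter in SUM159 only through the ALDHbr NIF group, in which alone all 3 libraries were past the minimum of 0.298 CPM, so its values there are no support for a response. The difference of the NIF effects between the populations was -0.09 (interval -1.42 to 1.23, adjusted p = 1, edgeR), which leaves effects of either sign. In that interaction 0 of 14953 genes passed with edgeR, which is 0%, against 238 at an unadjusted p under 0.05 and 2 with DESeq2.

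Between the SUM159 populations under DMSO, CYP4F11 had 0.26, 0.128 and 0.455 CPM in ALDHbr cells and 0.132, 0.152 and 0.069 CPM in ALDHneg cells. The lowest ALDHbr library lay among the ALDHneg libraries. The log2 fold change was 1.31 (SE 0.544, interval 0.144 to 2.47, adjusted p = 0.103, edgeR), so that 0 of 1 member tested passed where 23% of genes did. Without ALDHbr library 2 it was 1.63 with an adjusted p of 0.0478, and without ALDHbr library 3 it was 0.76 with 0.462 (edgeR).

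The other members were at the limit of detection in SUM159. CYP4F3 had 0 to 4 counts per library, CYP4F22 0 to 4, CYP4F12 0 to 2 and CYP4F2 0 to 1. Exact two-sided permutation tests of CPM, 3 libraries against 3, gave p from 0.1 to 1 over 14 comparisons of members below the filter, with an adjusted p of 1 throughout, and 0.1 is the smallest p this design allows. The value of 0.1 belonged to CYP4F3 in SUM159 ALDHneg cells, with 0 counts in all 3 NIF libraries and 1, 2 and 4 in the DMSO libraries.

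**Figure D3:**
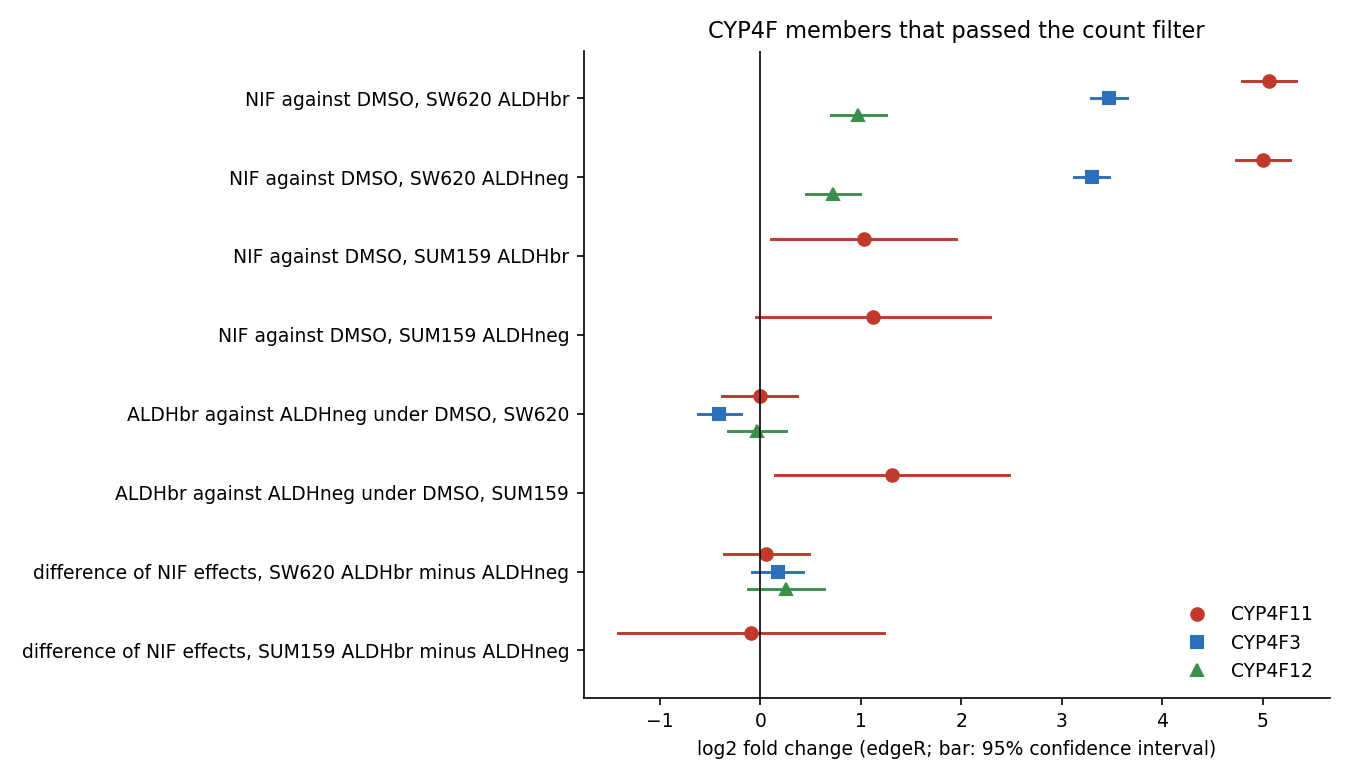
Log2 fold changes from edgeR, with 95% confidence intervals as bars, for the members that passed the count filter in each comparison. In SW620 the NIF effects are ordered CYP4F11, CYP4F3, CYP4F12 from 5.06 to 0.976 in ALDHbr cells, and the intervals of SUM159 are wide.

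Over the 8 groups, the mean level of CYP4F11 ran from 51.6 CPM in SW620 ALDHbr cells under NIF and 49.9 CPM in SW620 ALDHneg cells under NIF, whose libraries overlapped, to 1.56 and 1.54 CPM in the same populations under DMSO, which overlapped too. Below them came SUM159, with 0.592 CPM in ALDHbr cells under NIF, 0.281 CPM in ALDHbr cells under DMSO and 0.246 CPM in ALDHneg cells under NIF, of which the last 2 overlapped, and 0.118 CPM in ALDHneg cells under DMSO. SW620 exceeded SUM159 5.57-fold in ALDHbr and 13.1-fold in ALDHneg cells under DMSO, and 87.2-fold and 203-fold under NIF. For CYP4F3 the order was SW620 ALDHneg NIF with 38.9 CPM, ALDHbr NIF with 32.9 CPM, ALDHneg DMSO with 3.95 CPM and ALDHbr DMSO with 2.98 CPM, with no overlap between neighbours, and all SUM159 groups at 0.0606 CPM or less. CYP4F12 had 8.05 CPM in SW620 ALDHbr NIF and 6.93 CPM in ALDHneg NIF libraries, which overlapped, then 4.18 CPM in ALDHneg DMSO and 4.07 CPM in ALDHbr DMSO libraries, which overlapped. The lines differ in tissue, and the response of the lines was not tested against each other because the SW620 response chose the family.

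The genes whose log2 CPM followed CYP4F11 most closely over the 24 libraries, among 12779 genes that passed the filter in both lines, were AKR1C1 (Pearson r = 0.988), SLC20A2 (0.986), CD58 (0.983), RBCK1 (0.981) and GHITM (0.979). AKR1C1 is an aldo-keto reductase with near-identical neighbours, which makes its counts uncertain, SLC20A2 a phosphate transporter, CD58 an adhesion ligand, RBCK1 a subunit of the linear ubiquitin ligase and GHITM a mitochondrial membrane protein. AKR1C1 had a mean of 65.3 CPM under DMSO and 758 CPM under NIF in SW620 ALDHbr cells, and of 16.7 and 30.7 CPM in SUM159 ALDHbr cells. CD58, by contrast, spanned only 12.7 to 34 CPM over all groups. The libraries form separate clusters by line and treatment, 71 genes had an r above 0.95, and each r rests mostly on those clusters. Within the 12 SUM159 libraries, where CYP4F11 was near the floor, the 5 values of r ran from 0.543 to 0.856.

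**Figure D4:**
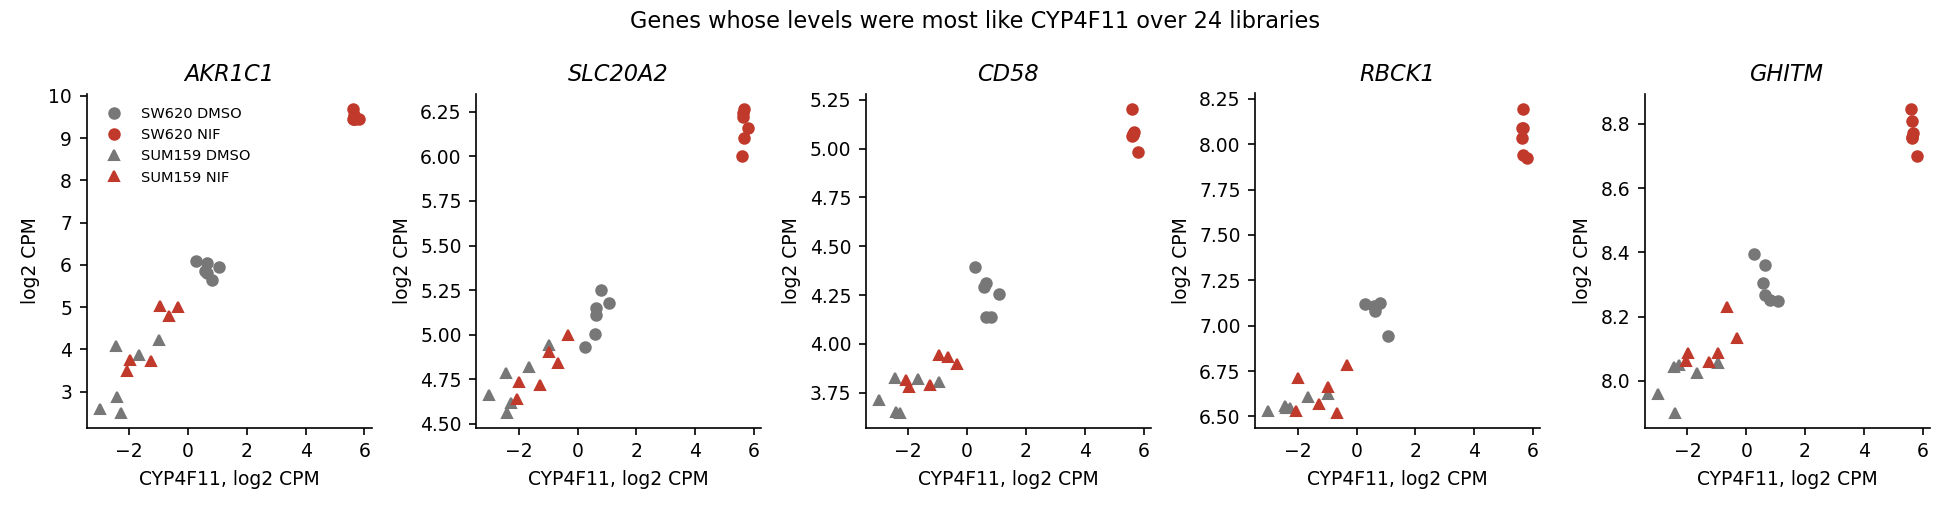
Log2 CPM of the 5 genes most like CYP4F11 against log2 CPM of CYP4F11 in 24 libraries, circles for SW620, triangles for SUM159, grey for DMSO and red for NIF. The SW620 NIF libraries stand alone at the upper right in each panel, and SW620 DMSO and SUM159 libraries form the lower left.

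Around these enzymes, 7 lists of genes were examined, in comparisons in which 21.9% of all genes in SW620 ALDHbr cells and 22.7% in ALDHneg cells were lower. Of 7 other CYP4 genes, 1 was tested in SW620, CYP4V2, a fatty acid hydroxylase of the eye, with a log2 fold change of -0.153 in ALDHbr cells (adjusted p = 0.458, edgeR) and -0.483 in ALDHneg cells (adjusted p = 0.0223, edgeR).

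The electron supply was mostly lower. Of 5 genes, 1 was higher and 3 lower under NIF in each population, with a median log2 fold change of -0.4 in ALDHbr and -0.37 in ALDHneg cells beside a median over all genes of -0.00701 and -0.00762. POR, the reductase that all microsomal P450 enzymes need, went from 127 CPM ± 10.1 to 149 CPM ± 10.2 (SD, n = 3 each) in ALDHbr cells (log2 fold change 0.221, adjusted p = 0.0193, edgeR, lost at 0.0681 when the 2 groups were fitted alone and at 0.075 without NIF library 3). In ALDHneg cells POR rose by a log2 fold change of 0.388 (adjusted p = 0.000404, edgeR). Cytochrome b5, CYB5A, which can pass the second electron, was lower by -0.573 and -0.577 on the log2 scale (adjusted p = 1.19e-05 and 9.87e-06, edgeR). Its mitochondrial form CYB5B had -0.41 and -0.37, and PGRMC1, a heme-binding partner of P450 enzymes, -0.4 and -0.395, all past the threshold.

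Of the genes downstream of omega hydroxylation, 11 of 16 listed were tested, and 2 were higher and 6 lower in ALDHbr cells, 1 higher and 7 lower in ALDHneg cells, with medians of -0.183 and -0.158. ADH1C, a class I alcohol dehydrogenase, had 79 to 126 counts per library under DMSO and 1 to 2 under NIF in ALDHbr cells (adjusted p = 1.13e-07, edgeR), and 20 to 29 counts and 0 in each library in ALDHneg cells (adjusted p = 5.34e-06, edgeR). ADH1C has close copies in its own family, so its counts are uncertain. ALDH3A1, a fatty aldehyde dehydrogenase, was higher in ALDHbr cells (0.406, adjusted p = 0.000516, edgeR) and had 0.0263 in ALDHneg cells (adjusted p = 0.801). The peroxisomal enzymes EHHADH and ACAA1 were lower in both populations, with log2 fold changes of -0.677 and -0.493 and of -0.503 and -0.574.

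Among genes that make or use the lipid mediators on which CYP4F3 acts, 9 of 14 were tested, and 2 were higher and 3 lower in ALDHbr cells, 1 higher and 4 lower in ALDHneg cells, with medians of -0.172 and -0.129. PTGR1, which oxidises leukotriene B4 at another carbon and also reduces prostaglandins, rose in both populations, with log2 fold changes of 1.26 and 1.36 (adjusted p = 3.84e-08 and 1.53e-08, edgeR). PLA2G4A, the phospholipase that releases arachidonic acid, had -1.02 and -1.10 on the log2 scale (adjusted p = 1.66e-08 and 6.38e-09, edgeR), from 32.2 CPM ± 1.45 to 15.9 CPM ± 0.823 (SD, n = 3 each) in ALDHbr cells. PTGS1, a cyclooxygenase, had -0.911 and -0.796 (adjusted p = 0.00113 and 0.00184, edgeR). ALOX5, the lipoxygenase that starts leukotriene synthesis, had 0.223 in ALDHbr cells (adjusted p = 0.0274, edgeR), a call lost under library-size scaling (0.0766) and with the 2 groups fitted alone (0.115), and -0.129 in ALDHneg cells (adjusted p = 0.166). Without NIF library 1 or 2 or DMSO library 1 or 3 it was lost too, at 0.0564 to 0.127.

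The list of acylceramide synthesis, the pathway of CYP4F22, which itself had no count in SW620, held the most genes that rose. Of 8 tested of 12 listed, 5 were higher in ALDHbr and 7 in ALDHneg cells and none lower, with medians of 0.376 and 0.584, in comparisons in which 21.4% and 22.3% of all genes were higher. The lists were chosen with earlier results of these data known, so their order by such counts is a description. PNPLA1, the transacylase of the last step, went from 4 to 13 counts per library under DMSO to 47 to 86 under NIF in ALDHbr cells (log2 fold change 2.94, SE 0.318, adjusted p = 5.11e-06, edgeR), and its value in ALDHneg cells was 2.95 (SE 0.311, adjusted p = 3.32e-06, edgeR). ALOXE3, an epidermal lipoxygenase, went from 9 to 15 counts to 37 to 47 in ALDHbr cells (log2 fold change 1.96, adjusted p = 0.000178, edgeR) and rose by 2.75 on the log2 scale in ALDHneg cells (adjusted p = 2.14e-06, edgeR). The highest SW620 library had 3.17 CPM of ALOXE3 and 2.54 CPM of PNPLA1. Also higher in both populations, and named after their values were seen, were SLC27A4 and ELOVL1, with log2 fold changes of 0.437 to 0.731.

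For vitamins K and E, 6 of 7 genes were tested, and 2 were higher and 1 lower in each SW620 population, with medians of 0.0221 and 0.106. NQO1, a quinone reductase that can reduce vitamin K, rose from 871 CPM ± 68.9 to 1580 CPM ± 87.7 (SD, n = 3 each) in ALDHbr cells (log2 fold change 0.852, adjusted p = 1.06e-07, edgeR) and by 0.922 in ALDHneg cells (adjusted p = 4.05e-08, edgeR). AIFM2, another vitamin K reductase, rose by 0.53 and 0.601 (adjusted p = 1.08e-05 and 2.7e-06, edgeR). VKORC1L1, of the vitamin K cycle, was lower by -0.191 and -0.348 (adjusted p = 0.00493 and 3.75e-05, edgeR), the first of which was lost at 0.0556 when the 2 groups were fitted alone.

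Of transcription factors named in work on CYP4 genes, 15 of 16 were tested in SW620, and 3 were higher and 7 lower in ALDHbr cells, 3 higher and 9 lower in ALDHneg cells, with medians of -0.0305 and -0.215. JUN, a subunit of AP-1, rose from 120 CPM ± 3.73 to 236 CPM ± 5.4 (SD, n = 3 each) in ALDHbr cells (log2 fold change 0.974, adjusted p = 1.19e-09, edgeR) and from 89.1 CPM ± 1.75 to 188 CPM ± 0.231 (SD, n = 3 each) in ALDHneg cells (1.07, adjusted p = 3.61e-10, edgeR). KEAP1, which holds back the factor of the antioxidant response element, was higher by 0.246 and 0.357 (adjusted p = 0.00567 and 0.00034, edgeR). That factor itself, NFE2L2, was higher by 0.122 and 0.194 (adjusted p = 0.0439 and 0.00325, edgeR), and is named for its values in SUM159. In ALDHbr cells the lowest were SREBF1 with -0.676 and PPARG with -0.672 (adjusted p = 1.02e-06 and 4.72e-07, edgeR), and in ALDHneg cells NR1I2 with -1.72, at 11 or fewer counts per library, and HNF4A with -0.78 (adjusted p = 0.0199 and 5.26e-08, edgeR). The call of NR1I2 was lost without NIF library 1 or 3 or DMSO library 1.

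**Figure D5:**
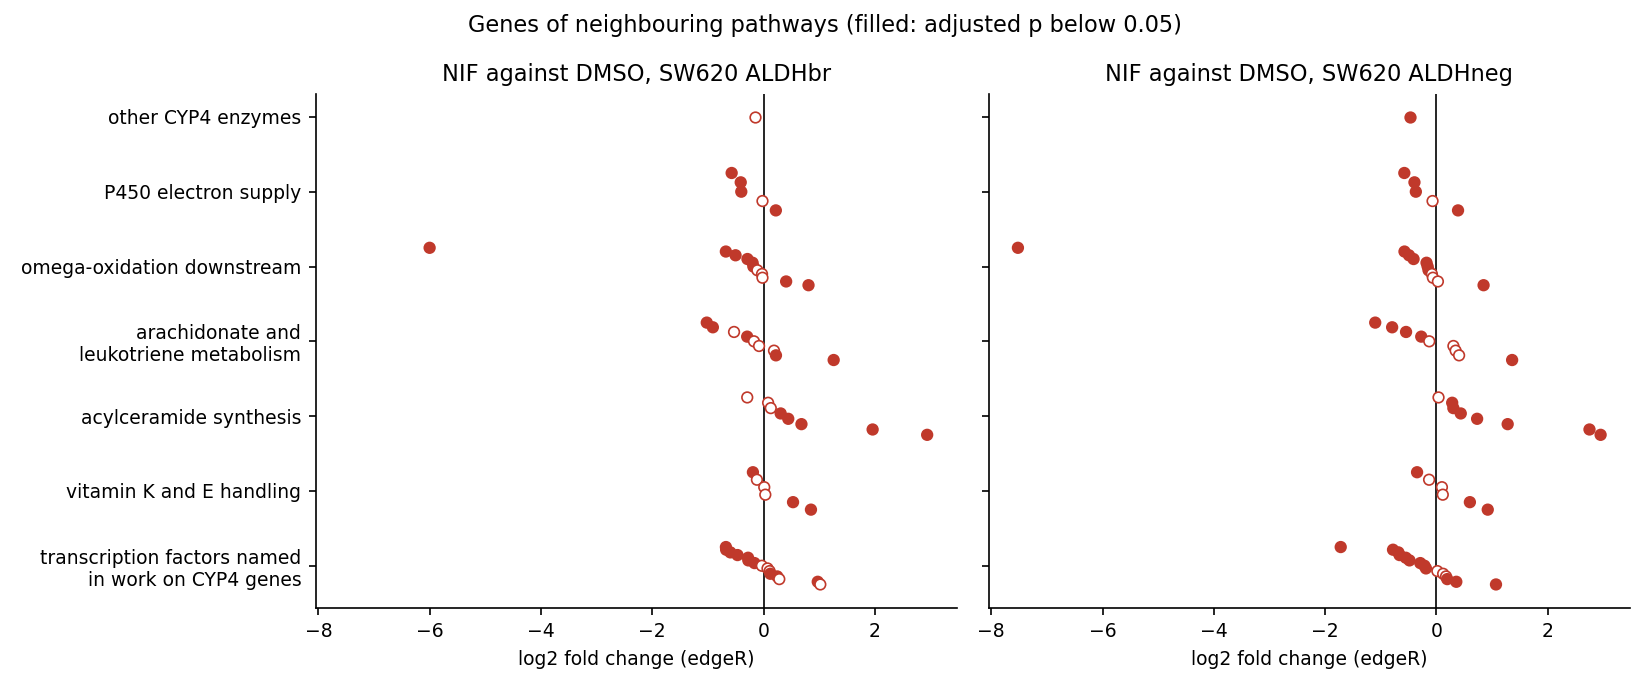
Log2 fold change of NIF against DMSO in SW620 ALDHbr (left) and ALDHneg (right) cells for each tested gene of 7 lists around the CYP4F enzymes, filled where the adjusted p was under 0.05. ADH1C stands far to the left (its ALDHneg NIF libraries were all at 0, so that point depends on the prior count), and PNPLA1 and ALOXE3 are the points farthest to the right.

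In SUM159 the same lists gave few calls in the fit without a replicate block. In ALDHbr cells PTGR1 (log2 fold change 0.754, adjusted p = 0.0317), NQO1 (0.484, 0.0345) and AIFM2 (0.368, 0.0181) were higher, and UGCG, the glucosylceramide synthase (-0.605, 0.00322), SREBF2 (-0.399, 0.0201) and NFE2L2 (-0.444, 0.00282) were lower (edgeR). Of these 6 calls, those of UGCG and NFE2L2 alone outlasted the loss of any single library. In ALDHneg cells PGRMC1 (0.277, 0.0282) and ABHD5, a lipase cofactor (0.279, 0.0422), were higher, and UGCG (-0.476, 0.0159), NFE2L2 (-0.366, 0.0118) and SREBF2 (-0.389, 0.0233) were lower (edgeR). Each of these 5 calls was lost without some library. A block for the replicate number moved several list counts, and with it the share of all genes called rose to 5.77% higher and 7.56% lower in ALDHbr cells and to 6.1% higher and 7.08% lower in ALDHneg cells. Nothing particular to the lists is read from the counts that follow. Factors called lower went from 2 to 6 in ALDHbr and from 2 to 5 in ALDHneg cells, with 1 called higher in each in place of 0. Electron supply genes called higher went from 0 to 2 in ALDHbr cells, with 1 lower in each population in place of 0. Downstream genes called higher went from 1 to 2 in ALDHbr and from 0 to 2 in ALDHneg cells. In ALDHneg cells 1 arachidonate gene and 2 vitamin genes were then higher, in place of 0.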

How the data were processed

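Total RNA of sorted cells was made into libraries with a stranded total RNA kit. The authors deposited raw counts of reads per gene, whole numbers without normalization, for 28307 genes in 24 libraries. The submitters' processing notes name STAR, FastQC and GRCh38. The counting tool, its annotation and settings are not given in the sources used here. Groups came from the sample titles and labels.

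SUM159 and SW620 were modelled separately (12 libraries each, 4 group means) in R 4.3.3 with edgeR 4.0.16, after filterByExpr by group (minimum count 10) and TMM scaling. Quasi-likelihood F tests were adjusted by the Benjamini-Hochberg method over all genes tested, with a threshold of 0.05. Levels are CPM with TMM factors over 24 libraries, and log2 CPM uses a prior count of 2. RPKM used canonical transcripts of GENCODE v44 mapped to GRCh37 for lengths only. Members below the filter were compared with exact two-sided permutation tests in scipy 1.17.1. Promoters were aligned with Biopython 1.88. Positions and promoters are RefSeq's on GRCh38.p14. The fits were tested on simulated counts.

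The members and all gene lists were chosen with earlier results of these data known. Named were all members, up to 2 called genes with the highest and 2 with the lowest log2 fold change of each list in each comparison of NIF with DMSO, and the 5 genes most correlated with CYP4F11. Some genes of these lists are counted but not reported by name here. Alternatives were a replicate block, each library left out, the compared groups alone, no filter on low counts, scaling by library size or by RLE, and DESeq2 1.42.0. The exon union length and the survey of P450 rows were chosen after seeing the data.

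Replicates differed by more than sampling noise (chi-square per gene 1.97 to 46.1 over 24 pairs). The replicate numbers paired the SUM159 libraries, by the correlation of same-numbered deviations from the group means (0.125 to 0.451, over 0.1 in 18 of 18 pairs), and 3 independent experiments are described. They did not pair those of SW620. Intervals and floors cover counting error only where so stated.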

Additional observations from a re-analysis of the deposited data

How the results depend on the processing

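The log2 fold changes of CYP4F11, CYP4F3 and CYP4F12 under NIF in SW620 kept their sign under every alternative run, at 4.87 to 5.30, 3.42 to 3.53 and 0.84 to 1.12 in ALDHbr cells and 4.94 to 5.08, 3.24 to 3.38 and 0.64 to 0.76 in ALDHneg cells. Of 821 alternative values of members and named pathway genes over all comparisons, 743 were unchanged. Another 66 were no longer past the threshold, 1 was newly past it and 11 turned their sign. Unchanged meant the same direction and side of the threshold. For the untested NIF effects of members in SW620 it meant the same direction and a move below the combined SD of the libraries compared. The 11 that turned their sign all came from leaving out a library, of results whose intervals include 0. With a library left out, the log2 difference between the SW620 populations ran from -0.24 to 0.19 for CYP4F11 and from -0.17 to 0.10 for CYP4F12. The CYP4F11 interaction ran from -0.41 to 0.45 in SUM159 and from -0.13 to 0.29 in SW620. Genes called for NIF in SUM159 ALDHbr cells were 854 with DESeq2, 1994 with the replicate block and 222 to 322 with a library left out, and in ALDHneg cells 855, 1970 and 192 to 584, and 292 with the compared groups alone. Between the SUM159 populations the block gave 5388, and 1 member was called without ALDHbr DMSO library 2. Between the SW620 populations 729 genes and 0 members were called with the compared groups alone, and 712 to 5487 genes and 0 to 1 members with a library left out, the 5487 without ALDHbr DMSO library 2. The SUM159 interaction had 2 calls with DESeq2, 3 without the filter, 6 with the block and 0 to 2 with a library left out. The SW620 interaction had 31 with DESeq2, 4 without the filter, 4 with library-size scaling, 2 with the block and 1 to 27 with a library left out, the 27 without ALDHbr DMSO library 2. The cause was not tested. Of the 5 genes most like CYP4F11, 0 were among the first 5 by Spearman correlation and 0 by Pearson correlation over the SW620 libraries alone. DESeq2 gave no adjusted p for CYP4F11 under NIF in SUM159. The replicate block changed no call of a member. In SW620 the numbers only name libraries (correlations -0.278 to 0.214, 1 of 12 libraries closest to its own number). Counts of 30 or fewer limit every SUM159 value.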

Other observations

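Other cytochrome P450 genes, surveyed after their values were seen, included both higher and lower genes in SW620. In SW620, 20 P450 genes outside the 5 members were tested, and 3 were higher and 7 lower under NIF in ALDHbr cells, where 21.4% of all genes were higher and 21.9% lower. In ALDHneg cells 5 were higher and 7 lower, where 22.3% and 22.7% of all genes were. Their median log2 fold changes were -0.31 and -0.213. CYP3A5, an enzyme of drug oxidation in gut and liver, was higher by 0.406 and 0.307 (adjusted p = 0.00128 and 0.00791, edgeR). CYP20A1 and CYP2R1, a vitamin D hydroxylase, were the other genes higher in ALDHbr cells (0.253 and 0.24). In ALDHneg cells they were higher too (0.409 and 0.392), as were CYP27B1 (0.497) and CYP19A1 (1.71). CYP19A1 was low, at a mean log2 CPM of -1.93 in SW620, and passed narrowly (SE 0.651, adjusted p = 0.0454, edgeR). CYP2W1, found in colon tumors, was lower by -1.59 and -2.34 (adjusted p = 0.000478 and 9.38e-05, edgeR), and CYP1A1, a target of the aryl hydrocarbon receptor, by -2.08 and -2.57 (adjusted p = 6.85e-08 and 6.09e-08, edgeR). CYP1B1, another such target, was lower by -1.69 and -2.31 (adjusted p = 3.2e-08 and 1.28e-09, edgeR), at a mean log2 CPM of 5.13. CYP51A1 was lower by -0.657 and -0.65 (adjusted p = 7.54e-08 and 6.85e-08, edgeR). CYP26A1, which breaks down retinoic acid, was low as well, at a mean log2 CPM of -1.73. It had -0.564 in ALDHbr cells (adjusted p = 0.436, edgeR) and -3.44 in ALDHneg cells (adjusted p = 9.64e-05, edgeR). The difference of these effects, 2.87 (SE 0.828), did not pass (adjusted p = 0.588, edgeR).

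In SUM159, 14 P450 genes outside the members were tested and 3 were lower in each population, where 2.23% of all genes in ALDHbr and 2.2% in ALDHneg cells were. CYP1A1 had -3.63 in ALDHbr and -3.35 in ALDHneg cells (adjusted p = 0.000309 and 0.000152, edgeR). CYP1B1, at a low mean log2 CPM of -1.43 in SUM159, had -2.88 and -2.37 (adjusted p = 0.0151 and 0.033, edgeR). CYP39A1, an enzyme of bile acid synthesis, had -1.4 and -1.04 (adjusted p = 0.0174 and 0.0324, edgeR).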
